A study of Mus musculus with 4 samples.

Results

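The nuclear-encoded genes of oxidative phosphorylation were examined in mouse retinas taken whole at postnatal day 10. Genes were taken by symbol as those whose name starts with Nduf, Uqcr, Cox4 to Cox8 or Atp5, together with Sdha, Sdhb, Sdhc and Sdhd, provided that the deposited status was OK in each of the 4 libraries. This gave 90 of the 23278 genes in the deposited table. Of these, 86 reached a mean of at least 1 FPKM (fragments scaled to transcript length and to library size) over the 4 libraries and entered the comparisons, beside 13150 genes in all. Of the 86 genes, 77 encode subunits of the 5 complexes. A further 4, Ndufaf1 to Ndufaf4, encode assembly factors of complex I. The other 5 carry a matching symbol but another role, namely Ndufa4l2, Cox7a2l, Atp5s, Atp5sl and Cox4nb, of which Cox4nb (now Emc8) belongs to the membrane protein insertase of the endoplasmic reticulum and not to respiration.

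The respiratory chain sits in the inner mitochondrial membrane. Complex I (NADH dehydrogenase) and complex II (succinate dehydrogenase) pass electrons to ubiquinone, complex III hands them to cytochrome c, complex IV (cytochrome c oxidase) reduces oxygen, and the proton gradient so built drives ATP synthase. Nearly all subunits are encoded in the nucleus, many by very short mRNAs, while a small set is encoded in mitochondrial DNA, which was not analysed here. In the retina the inner segments of photoreceptors are dense with mitochondria, and oxygen reaches the inner retina through vessels whose growth needs Norrin.

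All mice were of a mixed strain that contains at least C57BL6 and 129, and all were given 20 ug of the active tamoxifen metabolite 4HT into the peritoneum at postnatal day 3. The WT library carried neither change. The knockout library came from NdpKO mice, which lack Norrin, the ligand of Frizzled-4 on endothelial cells. The stabilized library came from Ctnnb1flex3/+;Pdgfb-CreER mice, in which Cre driven by the endothelial Pdgfb promoter removes a floxed exon of 1 beta-catenin allele and leaves a stable protein. The stabilized knockout library carried NdpKO and both of those alleles. The WT and knockout genotypes list no CreER, so beta-catenin stabilization and the presence of CreER cannot be told apart. RNA of 3 batches per genotype, each from 4 to 8 retinas of 2 to 4 mice, was pooled into 1 library. There were thus no replicates, no difference could be tested, and each ratio below compares a pair of libraries. The lines in the plots and the ranges in the text are the authors' deposited intervals, whose level was not given in the sources used here.

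Ndp itself was listed at 2.98 FPKM in WT, 0.873 in knockout, 2.35 in stabilized and 0.869 in stabilized knockout retinas. Xist, made by female cells, was listed at 135 FPKM in WT and 130 in the stabilized library but at no more than 1.28 in either library without Ndp, so sex and Ndp state cannot be told apart. Read totals were not given, and the FPKM of all genes summed to 423695 in WT, 417911 in knockout, 405525 in stabilized and 427109 in stabilized knockout retinas. The summed level of rod markers lay between 6166 FPKM in the stabilized and 7166 in the knockout library, with none of its 10 genes at 0. Endothelial markers summed to 61.9 FPKM in WT, 54.8 in knockout, 94.6 in stabilized and 92.2 in stabilized knockout retinas, with none of their 9 genes at 0. Of these, Cldn5 was listed at 6.91 FPKM in WT and 0.675 in the knockout. In that comparison 4 of the 8 tested endothelial markers had a ratio below 0, against 56.2% of all tested genes. Because whole tissue was sequenced, fewer cells of a type and less RNA per cell cannot be told apart.

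The genes were abundant. Their mean over the libraries had a median of 125 FPKM and ranged from 3.21 FPKM for Cox7a1 to 673 for Atp5k, the small e subunit of ATP synthase. The next highest were Ndufa4, a subunit of complex IV in spite of its symbol, at 627 FPKM, and Cox8a at 576. By complex, the median of the mean levels was 72.6 FPKM for the 4 subunits of complex II, 112 for 36 subunits of complex I, 187 for 8 of complex III, 275 for 15 of ATP synthase and 303 for the 14 tested subunits of complex IV. The assembly factors were low, with a median of 13.0 FPKM. The 4 genes under the minimum were all tissue-restricted isoforms of complex IV subunits. Cox6a2, the heart and muscle form, was listed between 0.0939 and 0.265 FPKM, Cox7b2 between 0.0951 and 0.337, Cox8b between 0.445 and 0.813, and Cox8c at 0 in every library. Their ubiquitous counterparts Cox6a1 and Cox8a lay between 370 and 426 FPKM and between 499 and 664 FPKM.

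Summed over the 90 genes, oxidative phosphorylation RNA amounted to 16117 FPKM in WT, 14777 in knockout, 12850 in stabilized and 13933 in stabilized knockout retinas. As a share of all FPKM this was 3.80%, 3.54%, 3.17% and 3.26%. The WT library was thus highest and the stabilized library lowest, and most genes were ordered the same way. Of the 86 genes, 73 (84.9%) had their lowest value in the stabilized library, against 34.1% of all tested genes and 42.3% of 3677 genes of like expression. The latter were all genes between the 10th and 90th percentile of the members' mean levels. Likewise 68 of the 86 (79.1%) were highest in WT, against 31.4% of all tested genes. Among 502 other genes whose transcripts are under 1000 nt and whose mean was at least 20 FPKM, 70.7% were lowest in the stabilized library and 72.9% highest in WT, so much of that order was found in short transcripts in general.

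**Figure D1:**
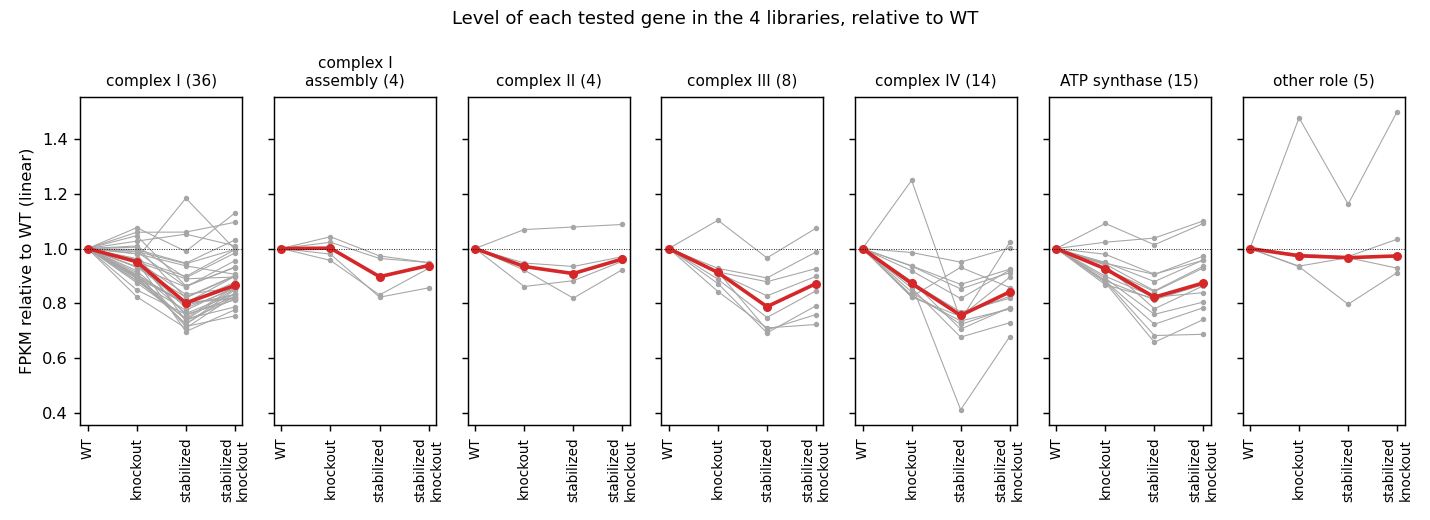
FPKM relative to WT (linear axis, no unit) of each of the 86 oxidative phosphorylation genes in the 4 libraries, 1 panel per complex or role, with each thin line 1 gene and the thick line the median. The medians of complexes I to IV, of ATP synthase and of the complex I assembly factors are lowest in the stabilized library. The genes that depart upward include Ndufa4l2 among those of another role.

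In the stabilized library against WT, the largest differences lay in small subunits of complexes I, III and IV and of ATP synthase, with Cox7a1, Atp5j2 and Cox6c at the lowest ratios. The median log2 ratio of the 86 genes, computed on FPKM plus 0.5, was -0.29 (0.820 times WT), against -0.02 over all tested genes and -0.05 over genes of like expression. A gene was counted as higher where its ratio was at least 25% above equality and as lower where it was at least 20% below, the same distance on the log2 scale (0.32). Of the 86 genes, 36 were lower and none higher, while 8.53% of all tested genes were lower and 6.27% higher. A ratio below 0 was seen in 79 of 86 genes, against 53.8%. At 1.5-fold, Atp5j2 and Cox7a1 were the 2 genes lower, against 1.71% of all tested genes, and none was higher, against 1.67%. The deposited intervals did not overlap for 23 genes, all lower in the stabilized library, against 1.57% of all tested genes lower and 1.76% higher by that rule.

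Cox6c, a small membrane subunit of complex IV, was listed at 620 FPKM in WT, 530 in knockout, 419 in stabilized and 452 in stabilized knockout retinas. Its log2 ratio in the stabilized library against WT was -0.56. Atp5j2, the f subunit of the membrane part of ATP synthase, was listed at 297, 260, 195 and 220 FPKM in the same order, with a log2 ratio of -0.60. Uqcr11, a small subunit of complex III, was listed at 225, 197, 156 and 178 FPKM, with a log2 ratio of -0.53. Ndufa4 was listed at 743, 655, 525 and 583 FPKM, with a log2 ratio of -0.50. In each of these 4 genes WT was highest, then the knockout, then the stabilized knockout, and the stabilized library lowest, and the WT interval lay wholly above that of the stabilized library. For Ndufa4 these intervals ran from 648 to 839 FPKM in WT and from 459 to 591 in the stabilized library.

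Among the genes with a ratio above 0 were Ndufs5, Ndufa4l2 and several large subunits. Sdha, the flavoprotein of complex II, was listed at 68.7 FPKM in WT, 73.5 in knockout, 74.1 in stabilized and 74.7 in stabilized knockout retinas. Ndufv1, which binds NADH in complex I, was listed at 63.5, 67.2, 67.3 and 69.5 FPKM. Atp5b, the catalytic beta subunit of ATP synthase, was listed at 531, 580, 539 and 580 FPKM, and Atp5a1, the alpha subunit, at 266, 272, 276 and 293. These 4 large-subunit genes were each lowest in WT. Their log2 ratios in the stabilized library against WT were 0.11, 0.08, 0.02 and 0.05, and the intervals of the 2 libraries overlapped for each.

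The difference between small and large subunits followed transcript length. Among the 86 genes, Spearman's rho between transcript length and the log2 ratio of the stabilized library against WT was 0.58, and between coding length and that ratio 0.68. Across other protein-coding genes of at least 20 FPKM the values were 0.47 and 0.57. These are correlations across genes, which share the same pair of libraries and are not independent replicates. The 54 genes with transcripts under 1000 nt had a median log2 ratio of -0.35, with 30 genes (55.6%) lower, against a median of -0.25 and 31.3% lower among the 502 other genes of that length. The 32 genes of 1000 nt and over had a median of -0.16, with 6 (18.8%) lower, against -0.02 and 4.63% lower among 3240 other genes.

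In finer classes of length the median of the oxidative phosphorylation genes ran beside that of other genes and mostly under it. Between 300 and 500 nt it was -0.46 in 12 genes against -0.32 in 37 others, and between 600 and 800 nt -0.32 in 18 genes against -0.25 in 195 others. Between 1000 and 1500 nt it was -0.24 in 13 genes against -0.14 in 502 others. Between 1500 and 2000 nt the order turned, with -0.05 in 10 genes against -0.07 in 576 others. Each gene was also set against the median ratio of other genes at most 20% shorter or 25% longer than itself, a comparison chosen after seeing the data. By transcript length, 56 of the 86 genes lay below that reference and the median difference was -0.08. By coding length, 64 lay below it and the median difference was -0.10. The reference genes themselves had median ratios of -0.23 and -0.19, so most of the difference of -0.29 was found in other genes of the same length too. With the reference subtracted, 5 genes by transcript length and 2 by coding length were still lower by the same rule, in place of 36.

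**Figure D2:**
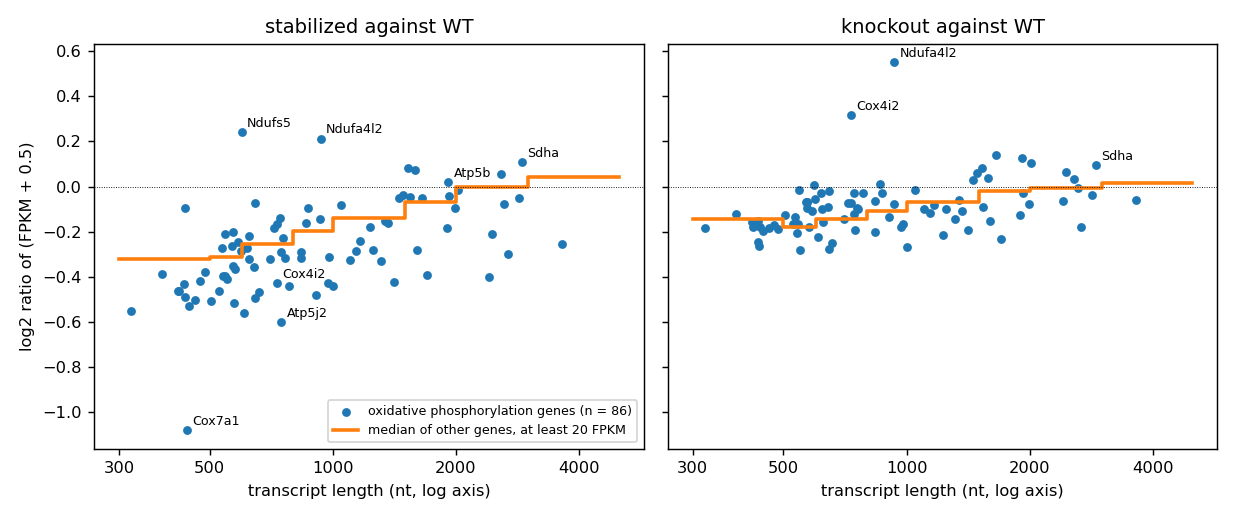
Log2 ratio on FPKM plus 0.5 (vertical axis) against transcript length in nt (log axis) for the 86 oxidative phosphorylation genes (points), with the median of other protein-coding genes of at least 20 FPKM in classes of length (line). In the stabilized library against WT (left) most points lie at or below a line that itself climbs from -0.32 in the shortest class to about 0, and in the knockout against WT (right) the points lie around the line.

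Within complex I, 17 of 36 subunits were lower in the stabilized library than in WT and none higher, against 8.53% and 6.27% of all tested genes, with a median log2 ratio of -0.32. Among its accessory subunits Ndufa2 was listed at 166 FPKM in WT, 158 in knockout, 116 in stabilized and 129 in stabilized knockout retinas. Ndufb8 was listed at 237, 207, 176 and 203 FPKM, and Ndufv3, a small partner of the flavoprotein, at 221, 182, 157 and 183. In all 3 the WT interval lay above the stabilized one, as it did in 8 of the 36 subunits, against 1.57% of all tested genes. Ndufa2 shares a deposited locus with another gene, so its values are uncertain. Ndufs7 shares a deposited locus with Atp5d, and the intervals of both reached 0, so the values of that pair are uncertain. The 4 assembly factors had a median of -0.15 with none lower.

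Ndufs5 had the highest such ratio in complex I. This accessory subunit was listed at 108 FPKM in WT, 104 in knockout, 128 in stabilized and 108 in stabilized knockout retinas. The stabilized library alone was high, with a log2 ratio of 0.24 against WT, the highest of all 86 genes though short of the 25% needed for a call, and the deposited intervals of 88.7 to 128 FPKM and 108 to 149 FPKM overlapped.

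Complex II, the entry point shared with the citric acid cycle, had 4 subunits, a median of -0.14 and none lower. Sdhb, its iron-sulfur subunit, was listed at 73.3 FPKM in WT, 67.5 in knockout, 60.0 in stabilized and 67.6 in stabilized knockout retinas, with a log2 ratio of -0.29. In complex III, 4 of 8 subunits were lower, against 8.53% of all tested genes, with a median of -0.35. These were the small subunits Uqcr10, Uqcr11, Uqcrh and Uqcrq, and for each the WT and stabilized intervals did not overlap, against 1.57% of all tested genes lower by that rule. Uqcrc1, a large scaffold subunit, was listed at 87.6, 96.6, 84.6 and 94.1 FPKM and Uqcrfs1, the Rieske iron-sulfur protein, at 82.1, 76.1, 73.2 and 81.0. In complex IV, 9 of 14 subunits were lower with a median of -0.40, and 7 of these 9 had intervals apart. Its nuclear subunits are short, with a median transcript of 588 nt. In ATP synthase, 5 of 15 subunits were lower with a median of -0.28. Atp5k was listed at 828 FPKM in WT, 730 in knockout, 565 in stabilized and 569 in stabilized knockout retinas. The 3 genes for the identical mature c subunit of the rotor stood closer together in ratio, with Atp5g1 at 144, 127, 117 and 125 FPKM, Atp5g2 at 298, 276, 251 and 277, and Atp5g3 at 446, 423, 392 and 428. None of these 3 was lower by the rule for calls. The way fragments were divided among such related sequences was not given in the sources used here, which leaves their separate levels uncertain. Relative to genes of like transcript length, the medians of complexes I, III and IV and of ATP synthase were -0.09, -0.12, -0.10 and -0.08. Relative to genes of like coding length they were -0.13, -0.18, -0.13 and -0.10, so the complexes lay closer together than in the plain ratios, and complex III and not complex IV was lowest.

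Loss of Ndp alone came with small differences. In the knockout against WT the median log2 ratio of the 86 genes was -0.10 (0.933 times WT), against -0.02 over all tested genes, and 72 of 86 had a ratio below 0, against 56.2% of all tested genes. None was called lower, against 3.30% of all tested genes, and 1 was called higher, against 2.74%. At 1.5-fold none was higher, against 0.966%, or lower, against 1.22%. No gene had intervals apart, against 0.433% of all tested genes higher and 0.327% lower. The 54 genes under 1000 nt had a median of -0.13, as did the other 502 genes of that length, and by transcript length 43 of the 86 genes lay below their reference and 43 above it. Cox8a had the lowest ratio, at -0.28, with 664 FPKM in WT, 546 in knockout, 499 in stabilized and 595 in stabilized knockout retinas. Its WT interval of 580 to 749 FPKM and knockout interval of 478 to 615 FPKM overlapped.

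In the background of stabilized beta-catenin the ratio for Ndp loss had the other sign. In the stabilized knockout against the stabilized library the median was 0.11 (1.08 times), against 0.04 over all tested genes, and 7 of 86 genes had a ratio below 0, against 36.5%. By the rule for calls 3 genes were higher, Cox4i2, Cox7a1 and Ndufa4l2, against 3.38% of all tested genes, and none was lower, against 2.00%. At 1.5-fold Cox7a1 was higher, against 0.981%, and none was lower, against 0.692%. No gene had intervals apart, against 0.312% higher and 0.213% lower. Relative to genes of like length the median was 0.03. With FPKM rescaled to the same total in each library (TPM) it was 0.040, beside -0.03 over all tested genes.

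In the stabilized knockout against the knockout the median was -0.05 (0.969 times), against 0.03 over all tested genes, and 61 of 86 genes had a ratio below 0, against 40.5%. By the rule for calls 1 gene was lower, Atp5k with a log2 ratio of -0.36, against 3.25%, and none higher, against 5.70%. At 1.5-fold none was lower, against 0.920%, or higher, against 1.76%. No gene had intervals apart, against 1.26% higher and 0.487% lower. Relative to genes of like transcript length the median was -0.04, beside -0.08 for stabilization with Ndp present, and whether the 2 differ could not be tested. Side by side, the log2 ratio for stabilization was -0.56 with Ndp and -0.23 without it for Cox6c, -0.41 and 0.12 for Cox8a, and 0.24 and 0.05 for Ndufs5.

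Set against WT instead, the stabilized knockout had a median of -0.16 (0.897 times WT), against 0.01 over all tested genes, with 14 of 86 genes lower, against 4.32%, and 1 higher, against 6.57%. A ratio below 0 was seen in 74 of 86 genes, against 47.7%. At 1.5-fold none was lower, against 1.07%, or higher, against 1.79%. Intervals were apart for the 5 genes Atp5j2, Atp5k, Cox6c, Uqcr10 and Uqcrq, all lower, against 0.464% of all tested genes lower and 2.02% higher. Relative to genes of like transcript length the median was -0.02 and relative to genes of like coding length -0.07, and by neither was any gene still lower. All of these comparisons share libraries.

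Cox4i2 did not follow Cox4i1. Both encode forms of the same subunit of complex IV. Cox4i1 is the general form, while Cox4i2, on chromosome 2 from 152754173 to 152765037 (mm10), is known as a target of hypoxia-inducible factor and as a gene of pericytes. Cox4i1 was listed at 499 FPKM in WT, 466 in knockout, 425 in stabilized and 455 in stabilized knockout retinas, so that WT was highest. Cox4i2 was listed at 34.3, 42.9, 25.4 and 35.1 FPKM, so that each knockout library was above the library with the same beta-catenin state and intact Ndp. Its log2 ratios were 0.32 in the knockout against WT, just short of a call, and 0.46 in the stabilized knockout against the stabilized library. For stabilization they were -0.43 with Ndp intact and -0.28 without it. The intervals of WT (28.0 to 40.7 FPKM) and knockout (35.3 to 50.4 FPKM) overlapped, as did those of WT and the stabilized library (20.1 to 30.6 FPKM).

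Ndufa4l2, the relative of Ndufa4 that hypoxia-inducible factor is known to induce and that is also known from pericytes, lies on chromosome 10 from 127514967 to 127517154 (mm10). It was listed at 19.3 FPKM in WT, 28.5 in knockout, 22.4 in stabilized and 28.9 in stabilized knockout retinas. Both libraries without Ndp were above both with it. The log2 ratio was 0.55 in the knockout against WT and 0.36 in the stabilized knockout against the stabilized library. Ndufa4l2 was the only gene of the 86 called higher in the knockout, against 2.74% of all tested genes. The WT interval of 14.0 to 24.6 FPKM overlapped the knockout interval of 21.6 to 35.3 FPKM. Its deposited locus is shared with Shmt2 with no record of how fragments were divided between overlapping genes, so its level is uncertain.

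Pericyte markers were read beside these genes. The 9 markers summed to 48.6 FPKM in WT, 49.7 in knockout, 58.9 in stabilized and 57.8 in stabilized knockout retinas, with 5 of 9 passing the minimum and none at 0. In the knockout against WT the markers did not move one way. Rgs5 was listed at 17.6 FPKM in WT and 9.63 in the knockout, and Higd1b at 1.14 and 0.218. Abcc9 was listed at 0.691 and 0.643 FPKM, Cspg4 at 0.0994 and 0.0550, and Anpep at 0.0549 and 0.0262. By contrast Vtn, which photoreceptors are also known to make, was listed at 26.3 and 36.5 FPKM, Notch3 at 0.759 and 0.994, and Pdgfrb at 1.21 and 1.26. Vtn alone made up most of the sum in these libraries. The median log2 ratio of the 5 tested markers was 0.04, and 2 of the 5 had a ratio below 0, against 56.2% of all tested genes. In the stabilized library against WT 4 of the 5 were called higher and none lower, against 6.27% and 8.53%. In the stabilized knockout against the knockout 4 were called higher and 1, Vtn, lower, against 5.70% and 3.25%. The medians were 0.86 and 0.75. Cox4i2 had a ratio below 0 in both of these comparisons, and Ndufa4l2 was called in neither. Ndp state is also confounded with sex here, so these cannot be told apart for Cox4i2 or Ndufa4l2. The part of pericytes, of sex and of the other cells in these ratios was not tested.

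Cox7a1, the heart and skeletal muscle isoform of a small complex IV subunit, had the lowest ratio of all 86 genes. It was listed at 4.35 FPKM in WT, 3.78 in knockout, 1.79 in stabilized and 2.95 in stabilized knockout retinas, and its log2 ratio in the stabilized library against WT was -1.08. The WT interval of 2.55 to 6.14 FPKM and the stabilized interval of 0.785 to 2.79 FPKM overlapped, so the low level leaves that ratio imprecise. The ubiquitous Cox7a2 was listed at 232, 195, 168 and 181 FPKM, and Cox7a2l, which joins complexes III and IV into supercomplexes, at 147, 138, 117 and 134. Of another isoform pair, Cox6b1 was listed at 406, 356, 312 and 332 FPKM and Cox6b2, known from testis, at 9.83, 8.10, 9.15 and 8.43. Markers of striated muscle summed to 6.23 FPKM in WT, 5.90 in knockout, 5.38 in stabilized and 5.47 in stabilized knockout retinas, with 3 of 10 passing the minimum and 2 at 0 in each library with stabilized beta-catenin. Their part in the Cox7a1 values was not tested.

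**Figure D3:**
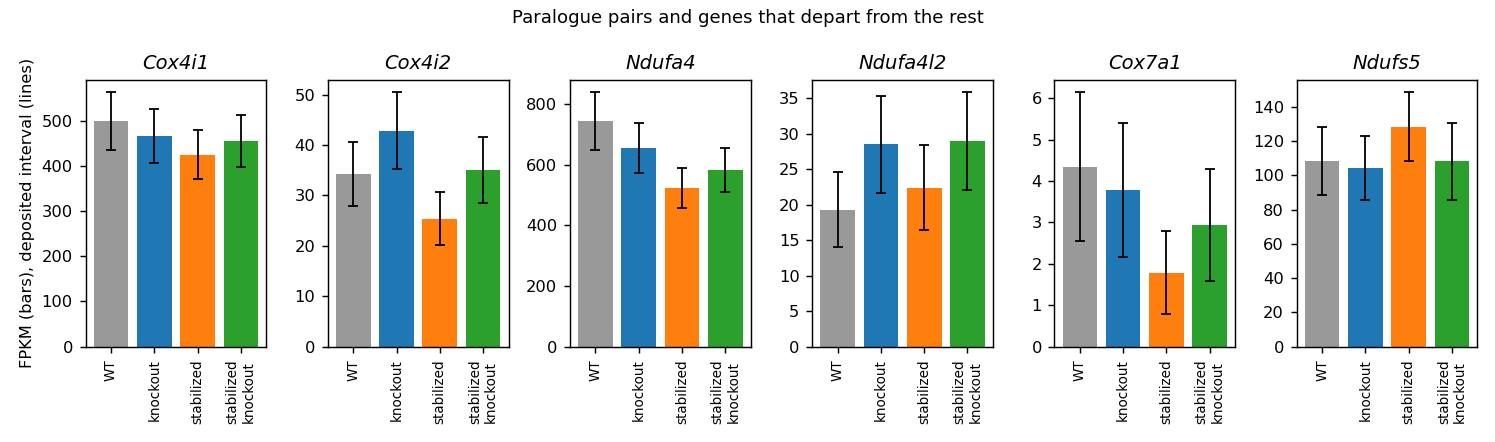
FPKM (bars, from 0) with the deposited intervals (lines) in the 4 libraries for the pairs Cox4i1 and Cox4i2, and Ndufa4 and Ndufa4l2, and for Cox7a1 and Ndufs5. Cox4i2 is highest in the knockout at 42.9 FPKM and Ndufa4l2 is higher in both libraries without Ndp, while Cox4i1 and Ndufa4 are highest in WT.

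Of the 86 genes 3 lie on the X chromosome. Ndufa1 was listed at 195 FPKM in WT, 175 in knockout, 141 in stabilized and 163 in stabilized knockout retinas, Ndufb11 at 226, 206, 161 and 170, and Cox7b at 110, 91.3, 81.0 and 85.7. In all 3 WT was highest and the stabilized library lowest, as in most of the 86 genes, of which 68 were highest in WT and 73 lowest in the stabilized library. The intervals of that pair, both with high Xist, did not overlap for these 3. By that rule 23 of the 86 genes and 1.57% of all tested genes were lower. Ndufb11 shares a deposited locus with another gene, so its values are uncertain.

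Genes that work beside the complexes were read the same way. Cycs, cytochrome c itself, was listed at 41.5 FPKM in WT, 36.9 in knockout, 29.9 in stabilized and 32.2 in stabilized knockout retinas, with a log2 ratio of -0.47 in the stabilized library against WT. Cyc1, the haem protein of complex III, was listed at 121, 114, 112 and 118 FPKM. In the same comparison 4 of 24 other assembly factors, 1 of 13 regulators of mitochondrial biogenesis and none of 17 citric acid cycle genes were lower, against 8.53% of all tested genes, with medians of -0.09, -0.09 and -0.04. The coactivator Ppargc1a was listed at 4.96, 5.56, 4.25 and 5.08 FPKM, and the transcription factor Nrf1 at 12.0, 11.3, 12.2 and 12.1. Against the same 8.53%, 19 of 76 mitochondrial ribosomal proteins were lower with a median of -0.20. Of 78 cytosolic ribosomal proteins, which have no role in respiration and are also short, 38 were lower with a median of -0.31. In the knockout against WT the cytosolic ribosomal proteins had a median of -0.22, below that of the oxidative phosphorylation genes at -0.10. The 16 glycolytic genes had a median of 0.02 in the stabilized library against WT and 0.20 in the knockout against WT, with 3 higher in the latter, against 2.74% of all tested genes.

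**Figure D4:**
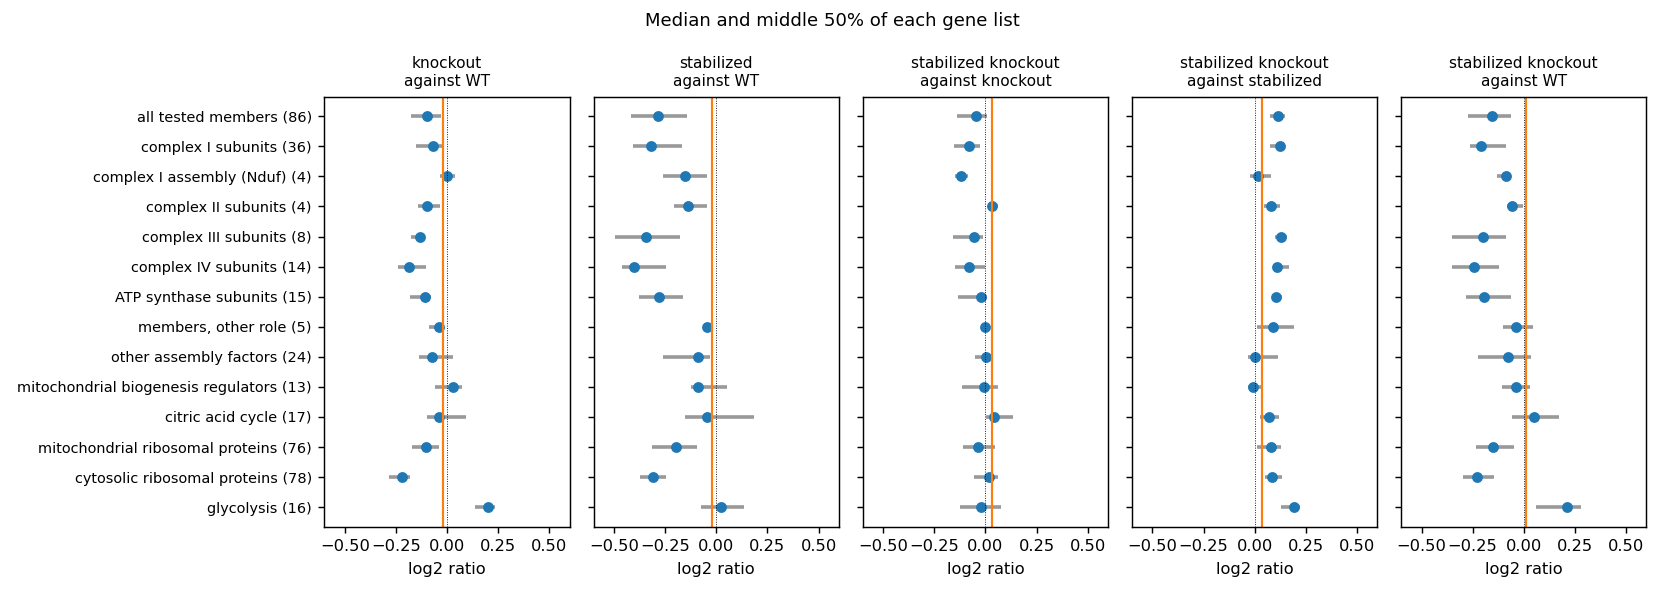
Median (point) and middle 50% (bar) of the log2 ratios on FPKM plus 0.5 for the complexes and for neighbouring gene lists in the 5 comparisons, with the number of tested genes in brackets; the orange line is the median of all tested genes and the dotted line marks equal levels. In the stabilized library against WT complex IV lies at -0.40 and the cytosolic ribosomal proteins at -0.31, while the citric acid cycle lies at -0.04.

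Nuclear respiratory genes are known to be driven by the factors NRF1 and GABPA, so the bases before their start sites were searched. RefSeq gave a start site for 72 of the 90 genes, and the 250 bases before it were read on the strand of the gene (GRCm38.p6). For 42 of the 72 genes the GENCODE start lies farther upstream, so that the window reaches into the gene as GENCODE draws it. It does so by over 30 bases in 33, and such windows are not all promoter. In some, such as those of Atp5g2, Atp5j2 and Ndufa12, all 250 bases lie past that start. The Atp5g2 window is among those counted for the NRF1 core below. Motifs were searched on both strands. The NRF1 core CGCATGCG was found in 7 of 72 windows (9.72%), against 3.04% of the windows of tested genes and 1.55% of all 32851 windows in that table. The core CCGGAAG, bound by GABPA and other ETS factors, was found in 12 (16.7%), against 12.9% and 6.91%. The YY1 core AAGATGGC was found in none, against 1.91% and 1.56%. By their letters the first 2 cores cannot share a base. In the stabilized library against WT the 7 tested genes with the NRF1 core had a median log2 ratio of -0.25 and the 63 without it -0.31, or 0.05 and -0.09 relative to genes of like length. The 12 genes with the ETS core had a median of -0.35 and the 58 without it -0.29, or -0.06 and -0.09 relative to genes of like length. Below are 3 of these windows, which reach at most 16 bases past the GENCODE start, 5′ to 3′, with motif matches in capitals, chosen because 2 belong to genes lower in the stabilized library and the other to Ndufs5, the gene with the highest ratio there. Atp5l (chr9:44920743-44920992, minus strand) holds an NRF1 and an ETS core, Uqcr11 (chr10:80406822-80407071, minus strand) an ETS core, and Ndufs5 (chr4:123718187-123718436, minus strand) none of the 3 motifs in this window. Not every lower gene held a match, since the windows of Uqcr10 and Cox7a1, both lower in the stabilized library, held none of the 3 motifs. The printed examples thus cannot show whether a motif goes with the ratio.
Atp5l: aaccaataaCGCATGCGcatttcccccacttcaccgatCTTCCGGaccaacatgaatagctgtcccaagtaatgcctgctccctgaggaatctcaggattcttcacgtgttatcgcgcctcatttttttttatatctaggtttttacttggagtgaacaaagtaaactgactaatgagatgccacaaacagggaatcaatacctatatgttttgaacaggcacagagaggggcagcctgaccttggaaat
Uqcr11: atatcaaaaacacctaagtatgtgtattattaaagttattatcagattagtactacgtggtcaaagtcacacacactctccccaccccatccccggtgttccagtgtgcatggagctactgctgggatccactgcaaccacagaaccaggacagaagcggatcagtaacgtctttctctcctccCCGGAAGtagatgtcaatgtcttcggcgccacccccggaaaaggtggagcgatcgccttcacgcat
Ndufs5: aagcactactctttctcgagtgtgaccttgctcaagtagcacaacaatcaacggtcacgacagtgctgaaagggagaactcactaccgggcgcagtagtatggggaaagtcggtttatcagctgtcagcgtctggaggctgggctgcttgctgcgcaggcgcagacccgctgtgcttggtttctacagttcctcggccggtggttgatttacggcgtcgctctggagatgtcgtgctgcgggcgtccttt
Atp5l, the g subunit of ATP synthase, was listed at 416 FPKM in WT, 371 in knockout, 316 in stabilized and 335 in stabilized knockout retinas. A match of letters is a description and no measure of binding.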

How the data were processed

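RNA of whole retina was sequenced in 4 pooled libraries, 1 per genotype, made with Illumina's TruSeq v2 kit, per the labels' protocols. The authors deposited 1 table with FPKM, interval bounds and a status per gene and library; the intervals are in FPKM too. Per the submitters' processing notes, TopHat and Cuffdiff were used with mm10. Versions, annotation, read length, read totals and interval level were not given in the sources used here. Precision is thus known only through the deposited intervals, whose upper half-width had a median of 13.5% to 14.2% of the value in the members. FPKM are relative to all RNA of a library.

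Log2 ratios were computed on FPKM plus 0.5, for genes with a mean of at least 1 FPKM and status OK (145 genes had another status). With 1 library per group there was no test. Calls were made at a ratio 25% above or 20% below equality. Length is the median over basic protein-coding transcripts in GENCODE M21, found for 22655 of 23278 genes, all 90 members and 98.6% of tested genes; some values, such as 2413 nt for Ndufb2, follow annotated long isoforms, so coding length was used beside it. Like-length references were other protein-coding genes of at least 20 FPKM (3742) at most 20% shorter or 25% longer; windows by transcript length held 9 to 1006 genes. Other settings tried were pseudocounts of 0.1 and 1, a minimum of 5 FPKM or none, re-centring, TPM, removal of a lowess trend on length and GC content, leaving out genes with a shared locus, 1.5-fold and intervals apart. The members, lists and settings were chosen with earlier results of these data known. Every member was kept in the counts and medians, though a named value is not reported here; genes are named by the 5 highest and 5 lowest ratios per comparison, isoform pairs, extremes of level per complex and intervals apart; Ndufs7, Sdhb and the promoters printed were picked after their values were seen. In all, 11 tested members share a deposited locus with another gene (Atp5b, Atp5d, Atp5f1, Atp5j, Ndufa13, Ndufa2, Ndufb11, Ndufs1, Ndufs7, Uqcrc2 and Ndufa4l2), so their values are uncertain. The plain ratio and the removal of the trend on length and GC content were tested on simulated data, with noise smaller than the deposited half-widths. The references of like length were not tested in that way. Python 3.11.15, numpy 2.4.6, pandas 2.3.3, scipy 1.17.1, statsmodels 0.14.6 and matplotlib 3.10.9 were used.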

Additional observations from a re-analysis of the deposited data

Results flagged for a closer look

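The ratio for loss of Ndp had opposite signs in the 2 beta-catenin states. The median log2 ratio of the 86 oxidative phosphorylation genes was -0.10 in the knockout against WT and 0.11 in the stabilized knockout against the stabilized library. With 1 library per genotype the difference was not tested. Over all tested genes the medians also had opposite signs, at -0.02 and 0.04. Relative to genes of like transcript length the medians of the 86 genes were 0.00 and 0.03. With TPM they were -0.080 and 0.040, beside -0.0039 and -0.033 over all tested genes.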

How the results depend on the processing

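Each comparison gave a median and 2 counts for the 86 genes, and no median changed sign except that of the knockout against WT, which came to 0.00087 beside genes of like transcript length. A pseudocount of 1 and a minimum of 5 FPKM kept every count within 1.5 times, with 35 in place of 36 genes lower in the stabilized library against WT by each. A pseudocount of 0.1 gave 2 genes lower in the stabilized knockout against the knockout. Without a minimum, 2 genes were higher in the knockout against WT and 2 in the stabilized knockout against WT. Re-centring and TPM each gave 2 higher in the knockout against WT and 3 lower in the stabilized knockout against the knockout. TPM also gave 28 genes lower and a median of -0.22 in the stabilized library against WT, and a median of 0.040 in the stabilized knockout against the stabilized library. Leaving out genes with a shared locus, or (added after seeing the data) keeping subunits only, left 0 higher in the knockout and 0 in the stabilized knockout against WT, since Ndufa4l2 was then absent.

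Settings that deal with length changed most in the stabilized library against WT. With the trend on length and GC content removed, its median was -0.11, with 1 higher and 7 lower; 2 were higher in the knockout against WT, 4 lower in the stabilized knockout against WT, and 1 lower in the stabilized knockout against the stabilized library. The references of like length were added after seeing the data. By transcript length the median in the stabilized library against WT was -0.081, with 2 higher and 5 lower; without ribosomal proteins it was -0.087, with 2 and 5; by coding length it was -0.10, with 2 and 2. In the knockout against WT the median by transcript length was 0.00087, and 2 genes were higher by each of the 3 references. By each, 0 were lower in the stabilized knockout against the knockout and 1 was lower in the stabilized knockout against the stabilized library. For the stabilized knockout against WT the medians by transcript length were -0.017 and, without ribosomal proteins, -0.030, with 0 and 1 lower, and by coding length -0.071 with 0 lower.

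At 1.5-fold, 2 genes were lower in the stabilized library against WT and 1 was higher in the stabilized knockout against the stabilized library, with 0 in the other counts. By intervals apart, against WT 23 genes were lower in stabilized and 5 in stabilized knockout retinas, with 0 in the other counts. No paired analysis was possible because each genotype had 1 library. Read totals were not given, so counting error could be read only from the deposited intervals.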
